A study of Mus musculus with 8 samples.

Results

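A set of 10 genes used to follow the transition between epithelial and mesenchymal cell states was read in whole kidneys of conditional knockout and wild-type mice. They were matched by symbol to Ensembl identifiers and came from 47643 genes in each library, of which 13829 were expressed highly enough to test. All 10 passed that filter. Their epithelial members are the cadherins Cdh1, Cdh6 and Cdh16 and the adhesion molecule Epcam, 4 genes. The 6 mesenchymal members are Cdh2, Vim, Cd44, Snai1, Snai2 and Zeb1. The knockout animals were Six2-Cre;Cox10-fl/fl conditional knockouts (cKO, n = 4) and the controls were labelled wild type (WT, n = 4), and the labels name no Cre or floxed allele in the controls. Replicates 1, 3 and 4 of each genotype were 3 months old and replicate 2 of each was 2.5 months old. Cox10 makes heme A for cytochrome c oxidase of the mitochondrial respiratory chain. Six2-Cre recombines in nephron progenitors, so the nephron epithelium carries the deletion and the collecting duct, vessels, stroma and blood cells do not descend from those progenitors.

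In an epithelial to mesenchymal transition, epithelial cells give up E-cadherin contacts and take on vimentin filaments and motile behaviour, and the Snail and Zeb repressors bind E-box sequences in epithelial genes. Cadherins are calcium-dependent adhesion proteins, and kidney tubules use several of them along the nephron, with Cdh16 (kidney-specific cadherin) on tubular epithelium and Cdh2 and Cdh6 in proximal tubule. Vimentin and CD44 are low in resting tubules and appear in injured tubular cells, but fibroblasts, endothelium, podocytes and leukocytes also make vimentin, and leukocytes make CD44.

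The promoters of the 2 members that rose (Vim and Cd44) and of Epcam are shown, as sequences on which those repressors and other factors could act. Of the epithelial members only Epcam and Cdh6 had a promoter to search, and Cdh6 held 0 E-boxes. Each sequence shown is the 250 bases before the RefSeq start in the RefSeq build GRCm38.p6, and capitals mark motif matches. The Vim window lies inside the annotated gene span given below (13573927 to 13582826), which starts before the RefSeq start.
Vim, chr2:13574061-13574310, plus strand: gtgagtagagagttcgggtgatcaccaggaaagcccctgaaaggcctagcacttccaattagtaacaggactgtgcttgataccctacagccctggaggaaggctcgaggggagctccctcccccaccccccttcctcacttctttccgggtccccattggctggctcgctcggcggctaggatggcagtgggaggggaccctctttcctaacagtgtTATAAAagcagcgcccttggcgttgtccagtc
Cd44, chr2:102901666-102901915, minus strand: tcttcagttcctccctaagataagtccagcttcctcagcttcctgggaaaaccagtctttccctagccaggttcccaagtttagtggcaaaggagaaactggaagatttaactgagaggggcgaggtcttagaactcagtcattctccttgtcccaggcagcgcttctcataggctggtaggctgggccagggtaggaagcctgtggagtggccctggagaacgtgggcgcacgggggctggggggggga
Epcam, chr17:87635729-87635978, plus strand: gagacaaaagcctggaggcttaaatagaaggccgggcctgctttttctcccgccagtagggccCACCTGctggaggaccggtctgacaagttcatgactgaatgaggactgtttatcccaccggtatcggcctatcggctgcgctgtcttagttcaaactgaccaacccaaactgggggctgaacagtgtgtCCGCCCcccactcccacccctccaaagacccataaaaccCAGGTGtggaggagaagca
The capitals in Vim are a TATA box 32 bases before the start. In Epcam they are E-boxes of the Snail and Zeb type 187 and 19 bases before the start, and between them a GC box at 58. Cd44 held no match. Of the 10 genes, 5 matched an entry of the promoter table (Cd44, Cdh6, Epcam, Snai1 and Vim), while Cdh1, Cdh2, Cdh16, Snai2 and Zeb1 were not matched. The motifs were searched on both strands, and none of the matches printed overlapped another. The E-box searched was CAGGTG. For AP-1 the letters were TGANTCA. A GC box was spelled GGGCGG. For the TATA box the search used TATAAA. On the opposite strand the E-box reads CACCTG. Snai1 also held 1 such E-box and Cdh6 held 2 overlapping GC boxes. Of 32851 promoter windows of the same length, 17.2% held the E-box, 6.75% the AP-1 site, 32.7% the GC box and 12.4% the TATA box. A match describes letters and not binding.

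Each library held 9454830 to 15838026 counts, estimated per gene by the authors, and counting error alone limits the members with few counts. Levels are given as CPM, counts scaled to a common library size by TMM. The targeted gene Cox10 had 18.4 ± 5.12 CPM in cKO and 20.96 ± 2.47 CPM in WT kidneys (SD, n = 4 each), a difference that did not pass (edgeR adjusted p = 0.619), and a total over the whole gene does not check the deletion. Reads of Y-linked genes were present in cKO 3 and in WT 2, WT 3 and WT 4, and absent from cKO 1, cKO 2, cKO 4 and WT 1, so sex and genotype overlap in part. Fits that account for this, either by a term for the presence of Y-linked reads (the sex term) or by comparing like with like, are given next to the main values. Fewer genes were called in them, 6.8% of all genes with the sex term, 3.47% among libraries bearing Y-linked reads and 0.868% among those lacking them. On the second principal component, which held 11.2% of the variance of the most variable genes, WT 1 lay apart from the other 7 libraries. Marker lists of proximal tubule, thick ascending limb, distal convoluted tubule, principal cells, intercalated cells and podocytes summed above 0 in every library, the lowest sum being 103 CPM, for podocytes in a cKO kidney.

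Vim and Cd44 rose in cKO kidneys, by 6.75-fold and 8.40-fold, and none of the other 8 genes passed the test. Thus 2 of 6 mesenchymal and 0 of 4 epithelial members were called by edgeR at an adjusted p under 0.05 over all tested genes, both higher in cKO. Of all tested genes, 16.7% were called in either direction and 9.57% were called higher, against 7.14% lower. The share of called members, 20%, is near that background and is not a result about the list as a whole. At an unadjusted p under 0.05 there were 5 members, namely Vim, Cd44, Cdh6, Epcam and Snai1, where 33.1% of all genes were. DESeq2 and limma-voom each added Cdh6 to the calls, at backgrounds of 22.9% and 16.5%. Cdh6 was also added with the replicate block, at a background of 16%, and both Cdh6 and Epcam with library size scaling at 17.5% and without WT 1 at 22%. The added Cdh6 calls are not support for a rise, because of the count filter, as given below. The median log2 fold change was 0.36 over the epithelial and 0.59 over the mesenchymal members, against -0.01 over all tested genes. The groups did not overlap for 3 members, Vim, Cd44 and Snai1, all higher in cKO, where 13.1% of all genes did so in that direction, 9.56% in the other and 22.6% in either.

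**Figure D1:**
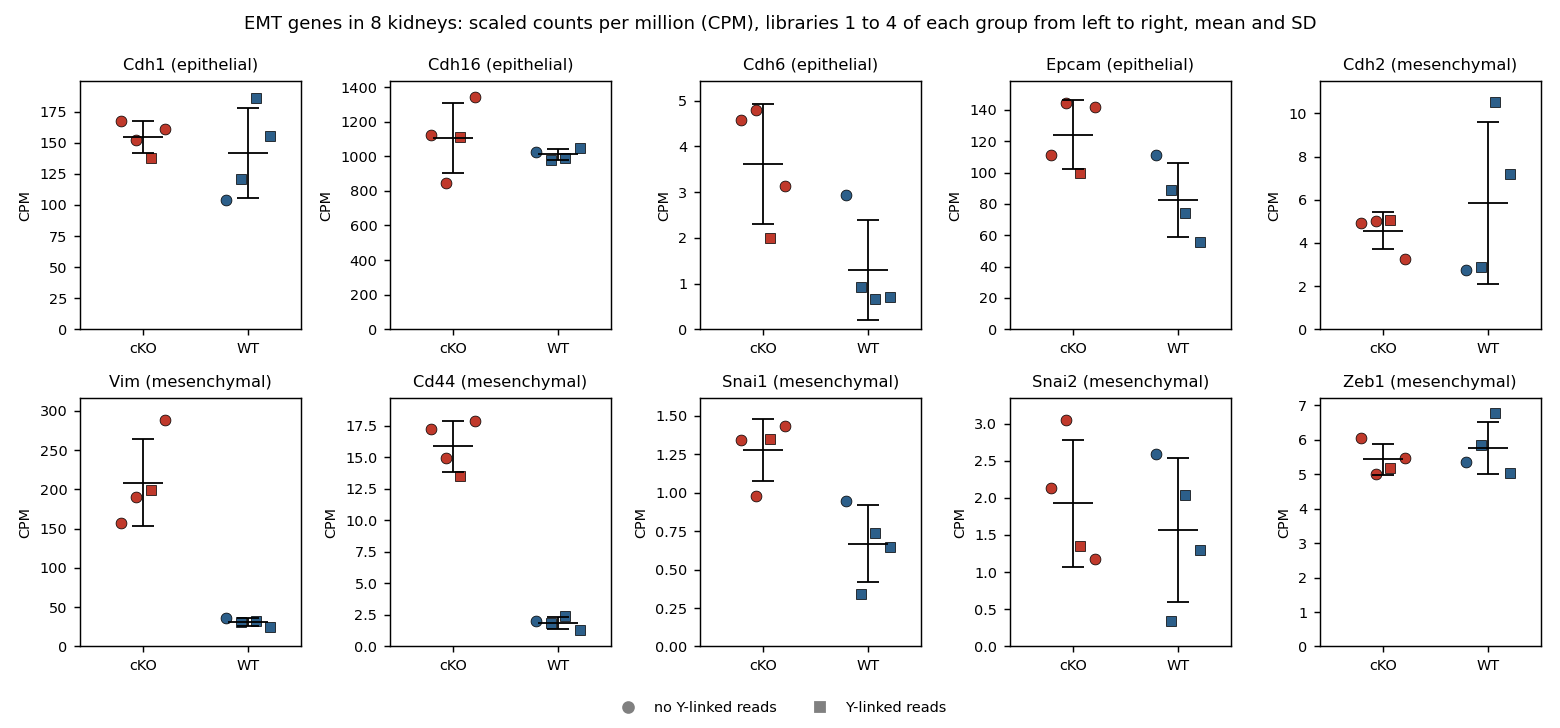
CPM of the 10 genes in each library (points, libraries 1 to 4 from left to right, squares for libraries with Y-linked reads), with the mean and SD of 4 cKO and 4 WT kidneys; each panel has its own linear axis from 0. The cKO and WT points separate for Vim, Cd44 and Snai1 and overlap in the other 7 panels.

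Vim encodes vimentin, the intermediate filament of mesenchymal cells (ENSMUSG00000026728, mm10 chromosome 2, 13573927 to 13582826). It had 158, 190.1, 199 and 288 CPM in cKO 1 to cKO 4, against 35.9, 31.3, 32.0 and 24.4 CPM in WT 1 to WT 4. Every cKO library lay above every WT library, and cKO 4 was the highest. The means were 209 ± 55.7 CPM in cKO and 30.9 ± 4.79 CPM in WT kidneys (SD, n = 4 each). On the log2 scale the difference was 2.76 (SE 0.24, 95% interval 2.22 to 3.29, edgeR adjusted p = 7.54e-05). The exact two-sided permutation test over the 8 libraries gave 0.0286, the smallest p that 4 against 4 allows. The sex term left 2.66 for Vim. Among libraries lacking Y-linked reads it was 2.56, among those bearing them 2.77, and each of these passed.

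Cd44 encodes the cell-surface receptor for hyaluronan and osteopontin (ENSMUSG00000005087, mm10 chromosome 2, 102811141 to 102901665). Its levels were 17.2, 14.9, 13.5 and 17.9 CPM in cKO 1 to cKO 4, against 1.98, 1.84, 2.45 and 1.29 CPM in WT 1 to WT 4. These rested on 137 to 282 counts per cKO library and 16 to 30 per WT library. The groups did not overlap, and the cKO libraries lay close together at 15.9 ± 2.03 CPM, with WT at 1.89 ± 0.476 CPM (SD, n = 4 each). This was a log2 difference of 3.07 (SE 0.26, 95% interval 2.49 to 3.65, edgeR adjusted p = 6.82e-05). The sex term gave 2.96, libraries lacking Y-linked reads 3.07 and libraries bearing them 2.86, again past the threshold in each. The interaction of genotype with Y-linked reads passed for 0 of the 10 members in edgeR, at an adjusted p of 1 for each, and for 0.0651% of all genes.

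Markers of other cell types that make vimentin or CD44 moved with genotype too. Of 10 macrophage and monocyte markers 8 rose, and none of the 10 was at 0 in all libraries. The list summed to 424 to 751 CPM in cKO and 113 to 217 CPM in WT libraries. With a sex term 7 rose, and without cKO 4 and WT 4 together 5 rose. The median log2 fold change of this list was 1.06 among libraries lacking Y-linked reads and 2.70 among those bearing them. WT 1 is the only WT library in the former and cKO 3 the only cKO library in the latter. The difference between these medians was not tested. The leukocyte antigen Ptprc had 7.16 ± 2.88 CPM in cKO and 5.15 ± 1.80 CPM in WT kidneys (SD, n = 4 each) and did not pass. Of 9 fibroblast and pericyte markers 7 rose and 1 fell (Pdgfra), with sums of 369 to 564 CPM in cKO and 171 to 233 CPM in WT libraries. With a sex term 4 of these rose, at a list median of 1.15 against 1.21 without it, and 2 rose without cKO 4 and WT 4 together. The fall of Pdgfra did not pass in either of these fits, at -0.80 and -1.09 against -0.91, nor without cKO 1, cKO 2, cKO 4 or WT 3. Endothelial markers summed to 194 to 329 CPM in cKO and 304 to 440.3 CPM in WT libraries, with 0 of 8 rising and 3 falling. With a sex term 1 of these 8 fell, at a list median of -0.69 against -0.75 without it, and 2 fell without cKO 4 and WT 4 together. Of 5 podocyte markers 0 passed. All 5 injured-tubule markers rose, and their sums were 514 to 1848 CPM in cKO and 7.89 to 19.2 CPM in WT libraries. The part of these cells in the rise of Vim and Cd44 was not tested. In whole kidneys, fewer cells of a type and less RNA per cell cannot be told apart.

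None of the 4 epithelial members passed the edgeR test in either direction. Cdh1, which encodes E-cadherin of the distal tubule and collecting duct (ENSMUSG00000000303, mm10 chromosome 8, 106603351 to 106670246), had 168, 152, 138 and 161 CPM in cKO 1 to cKO 4, against 104, 121, 186 and 156 CPM in WT 1 to WT 4. The groups overlapped, with both the lowest and the highest level in WT libraries. Its log2 difference was 0.13 (SE 0.22, edgeR adjusted p = 0.719), with a 95% interval of 0.780 to 1.53 in fold terms. That interval comes from the fit that ignores sex. The log2 difference was 0.00 without WT 1 and 0.23 with a sex term. Among libraries bearing Y-linked reads it was -0.16, and among those lacking them 0.62, with WT 1 the only WT library there.

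Cdh16, the kidney-specific cadherin (ENSMUSG00000031881, mm10 chromosome 8, 104601911 to 104624396), was the most abundant member. It had 1120.4, 844, 1113 and 1342 CPM in cKO 1 to cKO 4, against 1026, 981, 991 and 1045 CPM in WT 1 to WT 4. The cKO libraries spanned both sides of the WT range, and the SD was 204 CPM in cKO and 30.0 CPM in WT. These gave a log2 difference of 0.13 (SE 0.24, 95% interval -0.41 to 0.66, edgeR adjusted p = 0.743).

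Epcam, a homophilic adhesion molecule of distal nephron and collecting duct epithelium (ENSMUSG00000045394, mm10 chromosome 17, 87635979 to 87651129), had 112, 144, 99.7 and 142 CPM in cKO 1 to cKO 4. In WT 1 to WT 4 it had 111, 88.6, 74.0 and 55.5 CPM. The groups overlapped through WT 1, which lay above cKO 3 and just under cKO 1. Its log2 difference of 0.59 (SE 0.24, edgeR adjusted p = 0.115) did not pass, and it was 0.77 without WT 1 (edgeR adjusted p = 0.0446) and 0.35 with a sex term (edgeR adjusted p = 0.479). All 4 tested principal cell markers of the collecting duct rose, from a list that summed to 1077 to 2863 CPM in cKO and 425 to 675 CPM in WT libraries, and with a sex term 0 of them passed. Their median log2 fold change was 1.03, and it was 0.95 with that term, 1.06 among libraries lacking Y-linked reads and 0.96 among those bearing them, so the difference was about as large. Of 4 distal convoluted tubule markers 3 fell, also with the sex term, and the list summed to 403 to 545 CPM in cKO and 648 to 1333 CPM in WT libraries. Of 4 thick ascending limb markers 1 rose (Cldn16) and 0 fell, with a median of -0.82. The part of these cells in the Epcam and Cdh1 values was not tested.

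Cdh6, a type II cadherin of the developing nephron and proximal tubule (ENSMUSG00000039385, mm10 chromosome 15, 13028701 to 13173675), was detected at low levels. Its counts were 75, 44, 28 and 48 in cKO 1 to cKO 4, against 34, 8, 8 and 11 in WT 1 to WT 4. These gave 4.58, 4.79, 1.99 and 3.13 CPM in cKO 1 to cKO 4, against 2.93, 0.918, 0.653 and 0.711 CPM in WT 1 to WT 4. WT 1 stood more than 3-fold above the other WT libraries and overlapped the cKO range. Its log2 difference was 1.47 (SE 0.52, 95% interval 0.34 to 2.60, edgeR adjusted p = 0.0736). Without WT 1 it was 2.24 and passed (edgeR adjusted p = 0.00557), while with a sex term it was 0.92 (edgeR adjusted p = 0.218). Cdh6 passed the count filter through its higher cKO libraries, as WT 2, WT 3 and WT 4 held only 8, 8 and 11 counts. Its calls in some fits are therefore not support for a rise. With no count filter Cdh6 was not called. Of 8 proximal tubule markers 0 rose and 3 fell (Slc34a1, Lrp2 and Slc5a2), with sums of 2618 to 7765 CPM in cKO and 9034 to 14019 CPM in WT libraries. With a sex term 0 of these 8 passed, at a list median of -0.75 against -0.94 without it, 0 passed without cKO 4 and WT 4 together, and 0 to 4 fell with 1 library left out, 0 without cKO 4 and 1 without cKO 2, WT 3 or WT 4. Their part in the Cdh6 values was not tested.

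**Figure D2:**
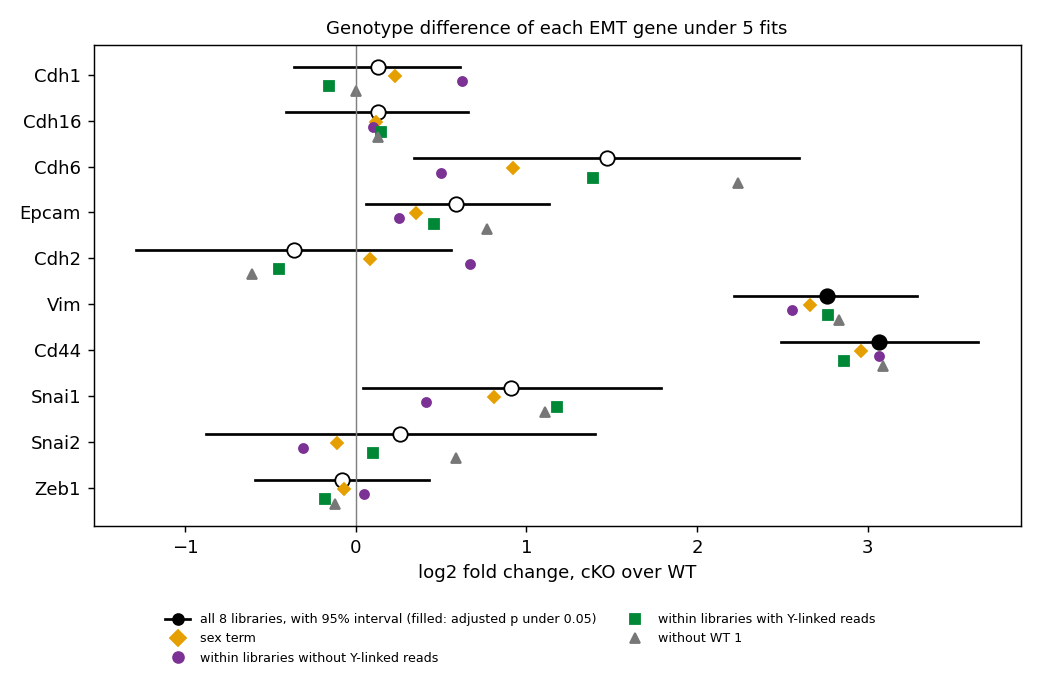
Log2 fold change of each gene, cKO over WT: all 8 libraries with the 95% interval (circle, filled where the adjusted p was under 0.05), with a sex term, within libraries without or with Y-linked reads, and without WT 1. Vim and Cd44 lie between 2.56 and 3.09 in all 5 fits, and the points of Cdh1, Cdh2, Snai2 and Zeb1 fall on both sides of 0.

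Cdh2 encodes N-cadherin, the cadherin that mesenchymal cells use in place of E-cadherin (ENSMUSG00000024304, mm10 chromosome 18, 16588877 to 16809246). It had 4.94, 5.0, 5.05 and 3.26 CPM in cKO 1 to cKO 4, against 2.76, 2.87, 10.5 and 7.18 CPM in WT 1 to WT 4. The WT libraries fell into a low and a high pair on either side of the cKO values. Its log2 difference was -0.36 (SE 0.42, edgeR adjusted p = 0.573). It turned to 0.08 with a sex term and 0.07 without WT 3, so no direction can be given.

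Snai1 and Snai2 encode the repressors Snail and Slug, and Zeb1 a zinc-finger repressor of E-cadherin. Snai1 (ENSMUSG00000042821, mm10 chromosome 2, 167538195 to 167542814) had only 22, 9, 19 and 22 counts in cKO 1 to cKO 4, against 11, 3, 9 and 10 in WT 1 to WT 4. In CPM these were 1.34, 0.979, 1.35 and 1.44 in cKO, against 0.949, 0.344, 0.735 and 0.647 in WT. Every cKO library lay above every WT library, by a margin of 0.979 in cKO 2 against 0.949 in WT 1. Its log2 difference of 0.91 (SE 0.40, 95% interval 0.04 to 1.79, edgeR adjusted p = 0.137) did not pass across all genes. The exact two-sided permutation test gave its smallest possible p of 0.0286. Snai1 passed the count filter through its higher cKO libraries, so neither that p nor the separation is support for a rise. Under the filter of 1 CPM in 4 libraries Snai1 was not tested.

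Snai2 (ENSMUSG00000022676, mm10 chromosome 16, 14705852 to 14709385) ranged widely in both genotypes, at 2.14, 3.05, 1.35 and 1.17 CPM in cKO 1 to cKO 4 and 2.59, 0.344, 2.04 and 1.29 CPM in WT 1 to WT 4. Its log2 difference was 0.26 (SE 0.52, edgeR adjusted p = 0.756), and it was -0.05 without WT 2 and -0.02 without cKO 2. Zeb1 (ENSMUSG00000024238, mm10 chromosome 18, 5591860 to 5775467) was the steadiest of the 3, at 6.04, 5.0, 5.19 and 5.48 CPM in cKO and 5.35, 5.85, 6.78 and 5.04 CPM in WT. Its log2 fold change was -0.08 (SE 0.23, 95% interval -0.59 to 0.43, edgeR adjusted p = 0.834), 0.08 under library size scaling and 0.00 without WT 3. An antisense transcript, Gm10125, overlaps Zeb1 at 0.263 CPM in cKO and 0.140 CPM in WT on average, and no source used here says whether strand was used in counting.

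The order of levels was set per length, as CPM per kilobase of merged exons. In cKO kidneys Cdh16 came first at 291 ± 53.7, then Epcam at 56.6 ± 10.1, Vim at 44.0 ± 11.7 and Cdh1 at 33.8 ± 2.80 (SD, n = 4). The ranges of Epcam and Vim overlapped, as did those of Vim and Cdh1. Cd44 followed at 2.34 ± 0.299, apart from the genes on either side of it. In WT kidneys the order was Cdh16 at 267 ± 7.91, Epcam at 37.5 ± 10.8, Cdh1 at 31.0 ± 7.98 and Vim at 6.52 ± 1.01, with only Epcam and Cdh1 overlapping among these 4. Vim thus reached the level of Cdh1 and Epcam in cKO kidneys and lay 4.76-fold under Cdh1 in WT kidneys. The other 5 members in cKO lay between 0.401 and 0.954, and the other 6 in WT between 0.144 and 0.775, with each overlapping its neighbour. Against all tested genes, the mean level of Vim per length stood at percentile 90.6 in cKO and 62.3 in WT, and that of Cd44 at 39.1 in cKO and 6.14 in WT.

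**Figure D3:**
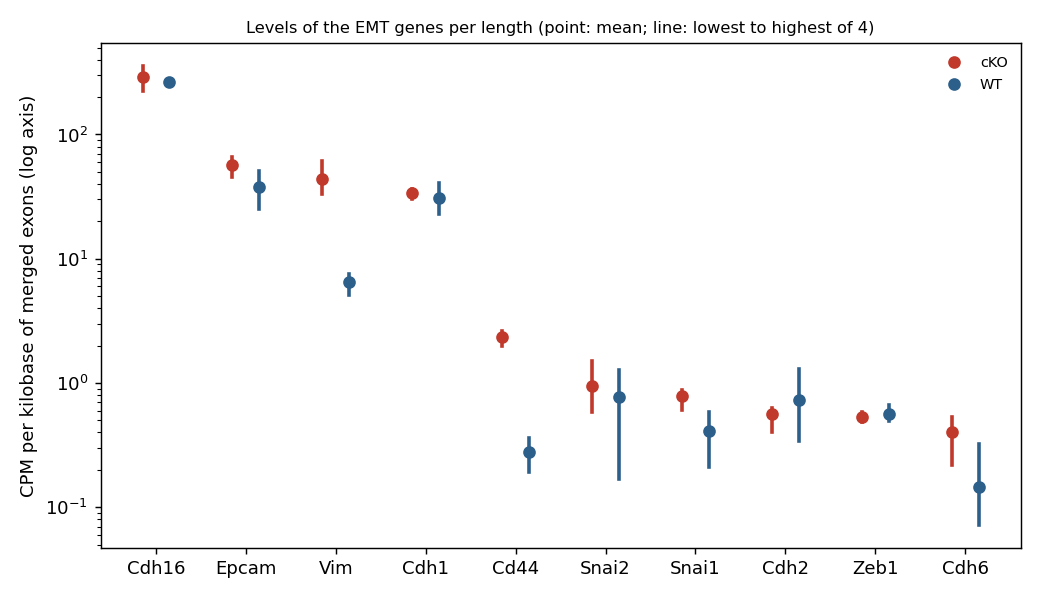
Level of each gene as CPM per kilobase of merged exons on a log axis (point: mean; line: lowest to highest of 4 libraries), cKO left of WT, ordered by the cKO mean. Vim stands beside Epcam and Cdh1 in cKO and under both in WT. Cd44 moves from among the lowest genes in WT to the rank after Cdh1 in cKO, where Cdh1 is 14.4-fold higher.

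Ratios between chosen pairs of members within a library need no scaling between libraries. They are not corrected for length, so only their shift between genotypes is read, and they carry no test. The ratios with Vim or Cd44 restate the rises given above and are no further result. The log2 ratio of Vim to Cdh1 was -0.09, 0.32, 0.53 and 0.83 in cKO 1 to cKO 4, against -1.54, -1.95, -2.54 and -2.67 in WT 1 to WT 4. The genotypes did not overlap, and the means differed by 2.57. For Vim to Epcam the means were 0.73 ± 0.33 in cKO and -1.38 ± 0.22 in WT, and for Cd44 to Epcam -2.96 ± 0.24 in cKO and -5.44 ± 0.38 in WT (SD, n = 4 each), again without overlap. The ratio of Cdh2 to Cdh1, the pair of the textbook cadherin switch, overlapped between genotypes at -5.10 ± 0.37 in cKO and -4.80 ± 0.61 in WT. Cdh2 is a gene of proximal tubule, and Cdh1 one of distal tubule and collecting duct. In whole kidneys their ratio therefore compares segments and cannot show whether a switch took place within cells. Cdh16 to Cdh1 also overlapped, at 2.82 ± 0.27 in cKO and 2.87 ± 0.38 in WT. Cdh6 to Cdh1 was -5.50 ± 0.51 in cKO and -7.03 ± 1.34 in WT, where WT 1 at -5.15 lay inside the cKO range.

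**Figure D4:**
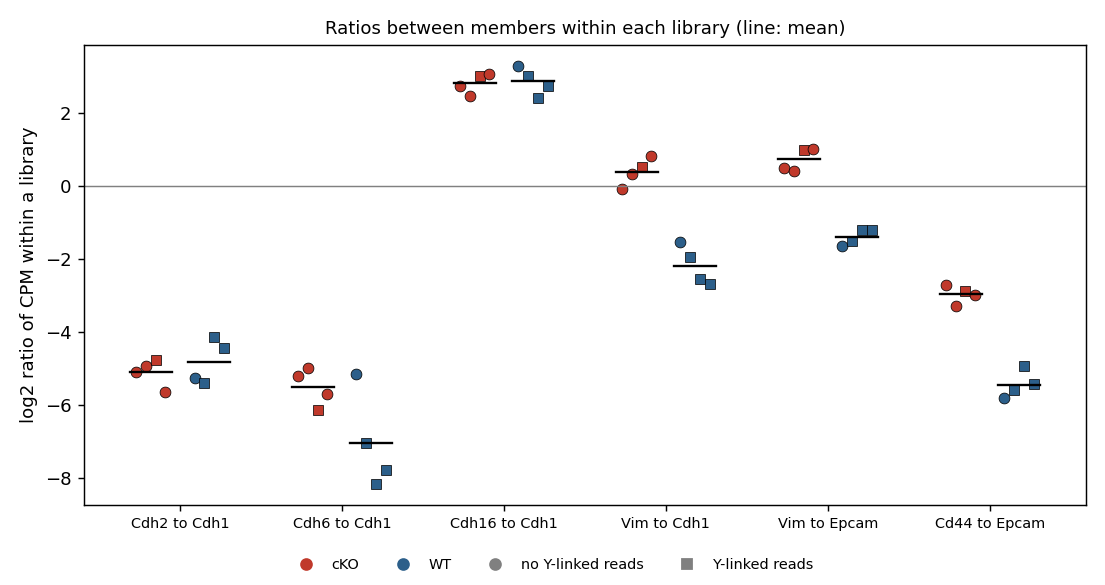
Log2 ratio of CPM between pairs of members in each library (red: cKO; blue: WT; squares: Y-linked reads; line: mean). The 3 ratios with Vim or Cd44 separate the genotypes, and the Cdh2 to Cdh1 and Cdh16 to Cdh1 ratios overlap.

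Genes that varied most like each member over the 8 libraries were ranked by the root mean square difference of centred log2 CPM, among 10352 genes with a mean of at least 5 CPM. This is a description over 8 libraries that share the genotype difference. The nearest to Vim were Socs3, an inhibitor of cytokine signalling, at 0.194, the mitotic kinase Cdk1 at 0.201 and Cd44 itself at 0.246. Cd44 had the same neighbours, Cdk1 at 0.228, Vim at 0.246 and Socs3 at 0.310. Nearest to Cdh6 were Prom1, which encodes the apical membrane protein prominin, at 0.207, Pla2g16 at 0.280 and the tetraspanin Tspan8 at 0.282. Of these, Tspan8 and Pla2g16 rose in cKO (edgeR adjusted p = 0.0121 and 0.0415) and Prom1 did not pass, with 159 CPM in cKO and 83.2 CPM in WT on average. Epcam lay nearest to Sowahb, Mmgt2 and Serpinb8, at 0.110, 0.129 and 0.140, none of which passed. Cdh1 was nearest to Stim2, Pias3 and Agfg1 and Cdh16 to Ppp2r1a, Cstf1 and Nucb1, with differences of 0.0553 to 0.0897 and no call. Cdh2 was nearest to Mga, Cep192 and Taok1, Snai2 to Gbp7, Tubgcp5 and Rdh13, and Zeb1 to Abraxas2, Tox4 and Gorasp2, again with no call.

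Other genes of the transition were read from lists written from general knowledge, but chosen with earlier results of these data known. Their calls are set beside the background of 9.57% of genes higher and 7.14% lower as a description, not as a test of the lists. Mesenchymal matrix and contractile genes rose in 14 of 15 tested cases (list median 2.67 on the log2 scale), and the integrin Itgb1 alone did not pass. The collagen Col3a1 had 193 ± 57.4 CPM in cKO and 24.3 ± 6.07 CPM in WT, and fibronectin Fn1 had 124 ± 25.8 CPM in cKO and 19.5 ± 5.74 CPM in WT (SD, n = 4 each). Sparc, a matrix-binding protein, had 879 ± 255 CPM in cKO and 138 ± 41.1 CPM in WT. The count stayed at 13 to 15 with any 1 library left out and was 14 with a sex term. The fibroblast and pericyte markers given above moved with them, 7 of 9 rising, and 3 genes (Col1a1, Col1a2 and Pdgfrb) stand in both lists. The part of those cells in the matrix genes was not tested. Of 6 other intermediate filament and linker genes 3 rose and 0 fell, namely the muscle filament Des, the progenitor filament Nes and the lamin Lmna, at log2 fold changes of 1.60, 1.42 and 1.28.

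Among the other transcription factors of the transition, Sox4 and Sox9 rose and 6 of 8 tested did not pass, with a median of 0.24. Sox9, a regulator of tubular repair, had 4.40 ± 1.83 CPM in cKO and 0.436 ± 0.354 CPM in WT, and Sox4 had 9.49 ± 0.879 CPM in cKO and 3.55 ± 1.45 CPM in WT (SD, n = 4 each). Sox9 held only 7, 0, 10 and 5 counts in WT 1 to WT 4 and passed the count filter through its cKO libraries. It was also called with no count filter. The size of its rise rests on those few WT counts. Snai3, Twist1, Twist2, Klf8 and Gsc were too low to test, at 0 to 38 counts over the 4 libraries of a genotype. Of 14 genes of the TGF-beta pathway, a classic inducer of the transition, the ligands Tgfb1, Tgfb2 and Tgfb3 rose, at log2 fold changes of 1.21, 1.96 and 2.21, and none of the receptors, Smad proteins and inhibitors listed was called. Without cKO 4 and WT 4 together, where 4.1% of all genes were called, 0 of the 8 transcription factors passed, and 2 of the TGF-beta genes did. In that smaller fit Sox9 was at 2.94 on the log2 scale (edgeR adjusted p = 0.0651), against 3.25 with all libraries, and Sox4 at 1.25 (edgeR adjusted p = 0.107), against 1.42.

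The epithelial companions gave calls in both directions. Of 10 regulators of epithelial identity, the factors Elf3 and Klf4 rose, at 43.9 ± 17.2 CPM in cKO and 15.6 ± 3.46 CPM in WT for Elf3 and 14.2 ± 4.72 CPM in cKO and 5.08 ± 1.31 CPM in WT for Klf4 (SD, n = 4 each). The splicing factors Esrp1 and Esrp2, which set the epithelial form of Cd44, and the factors Grhl2 and Ovol2 did not pass. Of 6 relatives and partners of EpCAM 4 rose, among them the claudin Cldn7 (66.0 ± 28.6 CPM in cKO and 17.8 ± 5.50 CPM in WT) and the protease and inhibitor pair St14 and Spint2. Among 5 other cadherins tested, Cdh3, which encodes P-cadherin, rose to 24.2 ± 7.80 CPM in cKO, against 4.54 ± 1.02 CPM in WT, 2.41 apart on the log2 scale (edgeR adjusted p = 0.000396). In the adherens junction list of 11 the nectin Nectin2 rose and the linker Plekha7 fell, and the catenins Ctnna1, Ctnnb1, Ctnnd1 and Jup did not pass. Of 8 desmosome genes Pkp4 alone was called, and it fell.

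St14, Spint2, Plekha7 and Pkp4 lost their calls with a sex term, which moved St14 to 0.61 on the log2 scale, Spint2 to 0.66, Plekha7 to -0.72 and Pkp4 to -0.78. The values were 0.80, 0.88, -1.02 and -0.87 in the fit that ignores sex. They also lost them with a library left out, at edgeR adjusted p values up to 0.136, 0.132, 0.0934 and 0.101, and leaving out WT 3, WT 4, cKO 2 or cKO 4 ended each of the 4. Urothelial markers rose in 4 of 5 cases and summed to 82.7 to 129 CPM in cKO and 12.2 to 57.3 CPM in WT libraries, with 2 of them rising under a sex term, and principal cell markers rose as given above. Both epithelia descend from sources other than the Six2 lineage, and their part in the rise of Cldn7 and Cdh3 was not tested.

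Ligands and partners of CD44 split. Spp1, which encodes the CD44 ligand osteopontin, had 16475 ± 6212 CPM in cKO and 852 ± 731 CPM in WT (SD, n = 4 each). The membrane protease Mmp14, which can cleave CD44, had 29.0 ± 7.20 CPM in cKO and 4.89 ± 2.23 CPM in WT, and the class II invariant chain Cd74 851 ± 366 CPM in cKO and 191 ± 75.7 CPM in WT. The hyaluronan receptor Hmmr rose as well, and Met, the receptor of hepatocyte growth factor, fell by 1.07 on the log2 scale and is named after its value was seen. Its call was lost with a sex term, at -0.87 (edgeR adjusted p = 0.208), without cKO 4 and WT 4 together, at -0.99, and without any 1 of cKO 2, cKO 3, cKO 4, WT 3 and WT 4, at -1.06 to -0.82. Thus 4 of 13 tested genes of this list rose and 1 fell, with a median of 0.12. The ERM linkers Ezr, Rdx and Msn, which tie CD44 to actin, did not pass. The hyaluronan synthases Has1, Has2 and Has3 were too low to test, at 0 to 23 counts over a genotype.

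**Figure D5:**
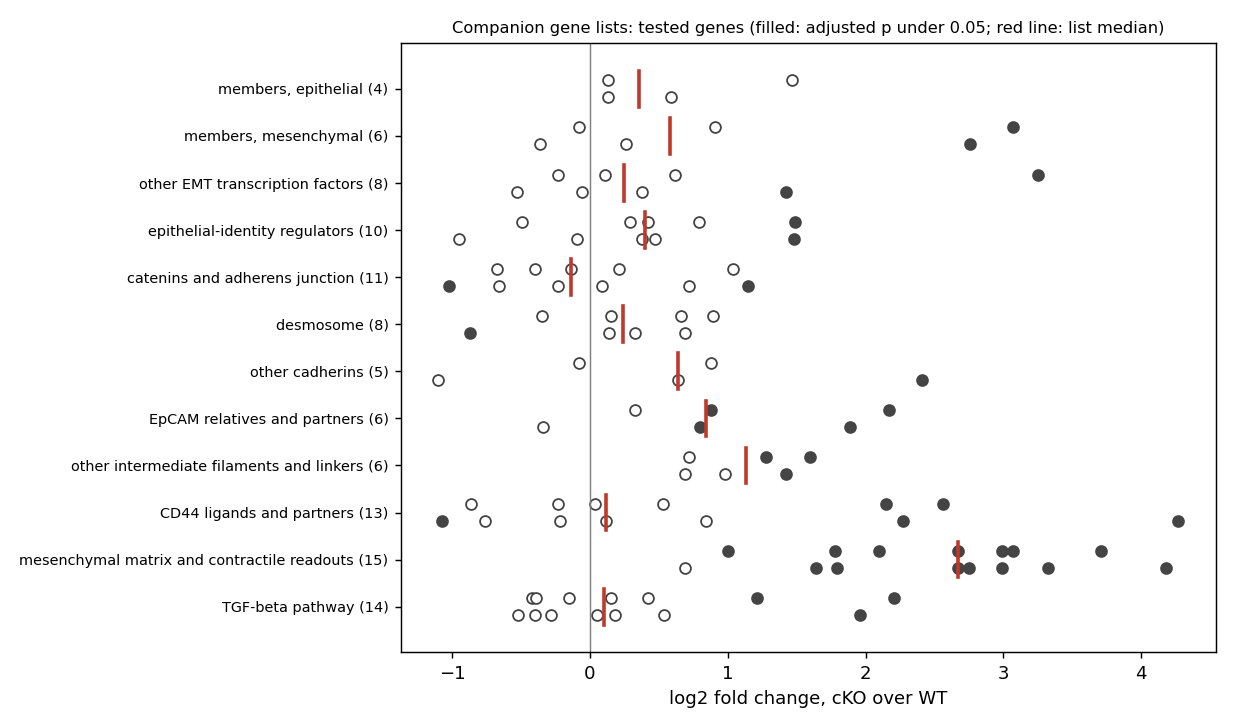
Log2 fold change, cKO over WT, of the tested genes of each list (number tested in brackets; filled: adjusted p under 0.05; red line: median of the list). The matrix and contractile list lies to the right with a median of 2.67, and the intermediate filament list has the next highest median at 1.13.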

How the data were processed

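RNA of 8 mouse kidneys was sequenced from stranded libraries of polyadenylated RNA, per the labels' protocols. The authors deposited expected counts per Ensembl gene, not scaled, and STAR, RSEM and mm10 are named in the submitters' processing notes. The versions, annotation and strand setting they used were not given in the sources used here. RSEM divides ambiguous reads between genes, so values need not be whole.

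Of 47643 identifiers, 47224 matched a GENCODE annotation of the same build, which gave symbols, positions and merged exon lengths. Counts were rounded to whole numbers, filtered with filterByExpr (minimum count 10), scaled by TMM and tested with the edgeR quasi-likelihood test (robust, two-sided), with Benjamini-Hochberg adjustment over 13829 genes and a threshold of 0.05. The SE is the log2 fold change divided by the root of the F statistic. Single genes were also tested by exact permutation of log2(CPM + 0.5) over 35 splits. A library with 10 or more counts on Y-linked genes was treated as bearing Y-linked reads. Nothing in the labels ties a library to a separate animal beyond its number, and p values measure the spread between these samples. No pair of libraries of a genotype was a copy, with a chi-square of at least 16.0 per gene.

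The members and lists were chosen with earlier results of these data known. Named genes are the 10 members, Cox10, up to 4 called genes per list with the smallest adjusted p, marker genes, and the 3 nearest genes of members with at least 1 CPM. Untested or uncalled list genes named with no value, and Met, are outside that rule, and some genes within it are not reported here. The alternatives tried were scaling by RLE, by upper quartile or by library size, scaling without the 20 most abundant or the mitochondrially encoded genes, no filter, a filter of 1 CPM in 4 libraries, DESeq2, limma-voom, terms for age, replicate number (block) and sex, comparisons among libraries of 1 sex, other thresholds and pseudocounts, and leaving out libraries. A term for the number run in the file headers (WT 4 and cKO 4 carry later numbers) was added after seeing the data. Steps were tested on simulated data. The model fits ran in R 4.3.3 (DESeq2 1.42.0, edgeR 4.0.16, limma 3.58.1). Tables and plots came from Python 3.11.15.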

Additional observations from a re-analysis of the deposited data

Results flagged for a closer look

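Of 72 groups of 4 libraries looked at, 2 for each of the 36 members and companion genes, 11 held a library whose gap to the nearest other exceeded Dixon's 95% critical value. Chance flags about 1 group in 20. Among the members, Cdh6 had 2.93 CPM in WT 1, with 0.653 to 0.918 CPM in the other WT libraries. Cdh2 had 3.26 CPM in cKO 4, with 4.94 to 5.05 CPM in the other cKO libraries.

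WT 1 was also the highest WT library for Sox4 (5.69 CPM, others 2.53 to 2.98), Spp1 (1946 CPM, others 446 to 557), Cd74 (305 CPM, others 151 to 156) and Tgfb3 (2.42 CPM, others 1.49 to 1.63). It is the WT library without Y-linked reads and the one apart on the second principal component, and what sets it apart was not tested. Without WT 1, Cdh6 and Epcam passed the test and 4 members were called, the Cdh6 call with the filter limit given above.

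The remaining flags were spread over libraries. In cKO, Pkp4 had 98.9 CPM in cKO 2 (others 166 to 178), Hmmr 2.18 CPM in cKO 2 (others 3.30 to 3.52), St14 126 CPM in cKO 4 (others 74.4 to 77.9) and Tgfb3 5.68 CPM in cKO 1 (others 9.03 to 9.39). In WT, Lmna had 42.9 CPM in WT 3 (others 48.7 to 49.1).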

How the results depend on the processing

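Vim and Cd44 kept their direction and call under all 25 alternatives to the main fit, with log2 fold changes of 2.43 to 2.92 and 2.83 to 3.23. The number of members called was 4 with library size scaling, and 2 to 4 with each library left out in turn (4 without WT 1), Cdh6 and Epcam being the additions. It was 3 with the replicate block, DESeq2 and limma-voom, Cdh6 being the addition. Over all genes 2310 were called, and the count was 941 with a sex term, 480 among libraries bearing Y-linked reads, 120 among those lacking them, 568 without replicate 4 of both groups, 1397 without the 2.5-month pair, 1155 to 3093 with 1 library left out, 798 at an adjusted p under 0.01 and 3526 under 0.1. With library size scaling the median gene moved by 0.16 (log2), and 1866 genes were called higher and 550 lower, where TMM gave 1323 and 987. Signs turned only among uncalled members. Cdh1 was -0.16 among libraries bearing Y-linked reads. Cdh2 was 0.08 with a sex term and 0.67 among libraries lacking Y-linked reads. Snai2 was -0.11 with a sex term, -0.31 among libraries lacking Y-linked reads and -0.33 without the 2.5-month pair. Zeb1 was 0.08 with library size scaling and 0.05 among libraries lacking Y-linked reads. With 1 library left out, Cdh1 ranged from 0.00 to 0.28, Cdh2 from -0.61 to 0.07, Snai2 from -0.05 to 0.59 and Zeb1 from -0.14 to 0.00. The cause of these shifts was not tested. Of the 26 called companion genes with the smallest adjusted p, up to 4 per list, 4 lost their call with a sex term and 13 without replicate 4 of both groups. Met and the other called list genes are outside this count, which favours the firmest calls. Among libraries lacking Y-linked reads the lone WT library, like the lone cKO library among those bearing them, is assumed to vary like the others. Same-numbered libraries had residual correlations of -0.08, 0.28, 0.12 and 0.00 and were not taken as pairs. With the replicate block 2208 genes were called. Depth limits Snai1, Snai2 and Cdh6, with 3 to 75 counts per library. Snai1 and Cdh6 passed the count filter through their higher cKO libraries, so the added Cdh6 calls are not support for a rise.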
